A study of Callithrix jacchus and Rattus norvegicus and Loxodonta africana with 31 samples.

Results

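Described here are 6 genes of ketone body synthesis, ketone body use and monocarboxylate transport, Bdh1, Oxct1, Acat1, Slc16a1, Slc16a3 and Slc16a7, in the tissues of 3 mammals. They were found by gene name, ignoring case, in tables that together hold 54059 gene entries, and 14 entries matched: 5 in the marmoset table, 6 in the rat table and 3 in the wallaby table. Marmoset OXCT1 carries no name in the deposited table and was matched through its Ensembl ID, which gave the marmoset all 6 genes. Slc16a7 was picked on its opposite heart and kidney values in marmoset and rat, so those values are given as a description with no test. The other 5 genes were chosen for their place in the pathway, with earlier results of these data known.

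The study measured polyadenylated RNA from organs of both sexes to follow the genes of the mammalian Y chromosome. The common marmoset (Callithrix jacchus) is a New World monkey. It and the rat (Rattus norvegicus) each gave heart, kidney, liver and brain from 1 female and 1 male. Each female also gave an ovary. Rat testis came from 1 male, and the marmoset has 1 testis column for 3 testis samples of 2 males, whose name does not say which of them it holds or whether they were pooled, so it is given as the authors' value. The wallaby (Notamacropus eugenii, a marsupial) gave liver and testis of 1 male. The labels tell the groups apart by species, tissue, sex and animal. No genotype, strain, age, diet or treatment is given in them, so whether animals or species differed in these is not known. The labels hold a frontal cortex and a cerebellum sample of each sex, and the brain columns do not say which of these they hold. With 1 animal of each sex, the spread between replicates is the spread between a female and a male.

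Ketone bodies are small fuels that liver mitochondria make from fatty acids, above all in fasting. BDH1 interconverts acetoacetate and beta-hydroxybutyrate, so BDH1 serves both the tissues that make ketones and those that burn them. In the tissues that burn them, OXCT1 activates acetoacetate to acetoacetyl-CoA and ACAT1 splits or forms acetoacetyl-CoA. Ketones, lactate and pyruvate cross membranes on monocarboxylate transporters, of which SLC16A1 (MCT1), SLC16A7 (MCT2) and SLC16A3 (MCT4) are the best known, and which need a partner protein, basigin (BSG) or embigin (EMB), to reach the surface. SLC16A3 is known for lactate export from glycolytic cells and SLC16A7 for high substrate affinity.

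Levels are in FPKM, a count of sequenced fragments scaled by transcript length and library depth, as deposited, and are given for the female and then the male library. The columns' FPKM sums differed widely, by 8.01-fold over the marmoset and 7.75-fold over the rat columns, and in marmoset heart the sum was 427621 in the female and 837796 in the male; the part of this in levels and in female to male differences was not tested. The markers of each organ were in their own columns: cardiac muscle markers summed to 9693 FPKM or more in hearts and to 62.5 FPKM or less in the other marmoset and rat columns except the marmoset testis column (250.0 FPKM). Both brain columns of each species held markers of cortical and of cerebellar neurons. In the rat, oligodendrocyte markers summed to 3022 FPKM in the female and 485 FPKM in the male brain column, and cerebellar markers to 216 and 1037 FPKM. Rat testis held 13244 FPKM of summed germ cell markers, whereas in the marmoset testis column the 2 markers found of 7 summed to 30.0 FPKM, with the spermatid gene TNP1 at 0.169 FPKM. An exact 0 can be a failed estimate in these tables, since albumin (ALB) was listed at 0 in both livers of marmoset and rat.

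OXCT1 (Ensembl ENSCJAG00000007199 in marmoset and ENSRNOG00000043094 in rat), the enzyme that commits acetoacetate to oxidation, was high in heart and close to absent in liver in both species. Marmoset OXCT1 was at 143 and 83.8 FPKM in heart, 10.3 and 7.30 FPKM in kidney, 0.421 and 0.141 FPKM in liver and 17.2 and 10.3 FPKM in brain. Rat Oxct1 was at 515 and 385 FPKM in heart, 138 and 144 FPKM in kidney, 1.59 and 0.382 FPKM in liver and 34.0 and 28.5 FPKM in brain. In both species every heart library stood above every other library, and every liver library below every kidney and brain one. Within the female marmoset heart exceeded liver 341-fold and within the male 595-fold. In bulk tissue, fewer cells of a type and less RNA per cell cannot be told apart.

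The tests set each tissue against the mean of the other tissues on log2(FPKM + 1), a scale that understates changes of genes near 1 FPKM. Marmoset heart exceeded kidney and liver in OXCT1 by 4.98 ± 0.20 log2 (limma estimate ± SE, adjusted p = 9.83e-05, higher within both animals), and rat heart by 4.77 ± 0.27 (limma adjusted p = 6.90e-05, higher within both animals). A gene passed at an adjusted p under 0.05 with an absolute change of at least 1, which 36.5% of all genes did in marmoset heart and 38.0% in rat heart. Liver was below heart and kidney, at -4.69 ± 0.20 in the marmoset (limma adjusted p = 9.85e-05) and -7.05 ± 0.27 in the rat (limma adjusted p = 1.93e-05), against backgrounds of 32.3% and 35.7% of genes that passed.

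Against the mean of heart and liver, the species' OXCT1 values parted in kidney. Rat kidney stood above the mean of heart and liver by 2.29 ± 0.27 log2 (limma adjusted p = 0.00155). Marmoset kidney did not pass, at -0.29 ± 0.20 (limma adjusted p = 0.312), and with a pseudocount of 0.1 FPKM this value was 0.50. Of all genes, 23.5% passed in marmoset kidney and 26.1% in rat kidney. The mean of heart and liver hides opposite pairs in both species. Kidney was above liver by 2.93 ± 0.23 log2 in the marmoset and 6.23 ± 0.31 in the rat (limma adjusted p = 7.92e-04 and 5.87e-05). Heart was above kidney by 3.51 ± 0.23 in the marmoset and 1.65 ± 0.31 in the rat (limma adjusted p = 4.29e-04 and 0.00761). The order of levels in the marmoset was heart, brain, ovary, kidney, testis and liver, with ovary and kidney overlapping. In the rat it was heart, kidney, brain, ovary, testis and liver, with testis and liver overlapping. The tables were normalized separately, and the difference between species was not tested.

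**Figure D1:**
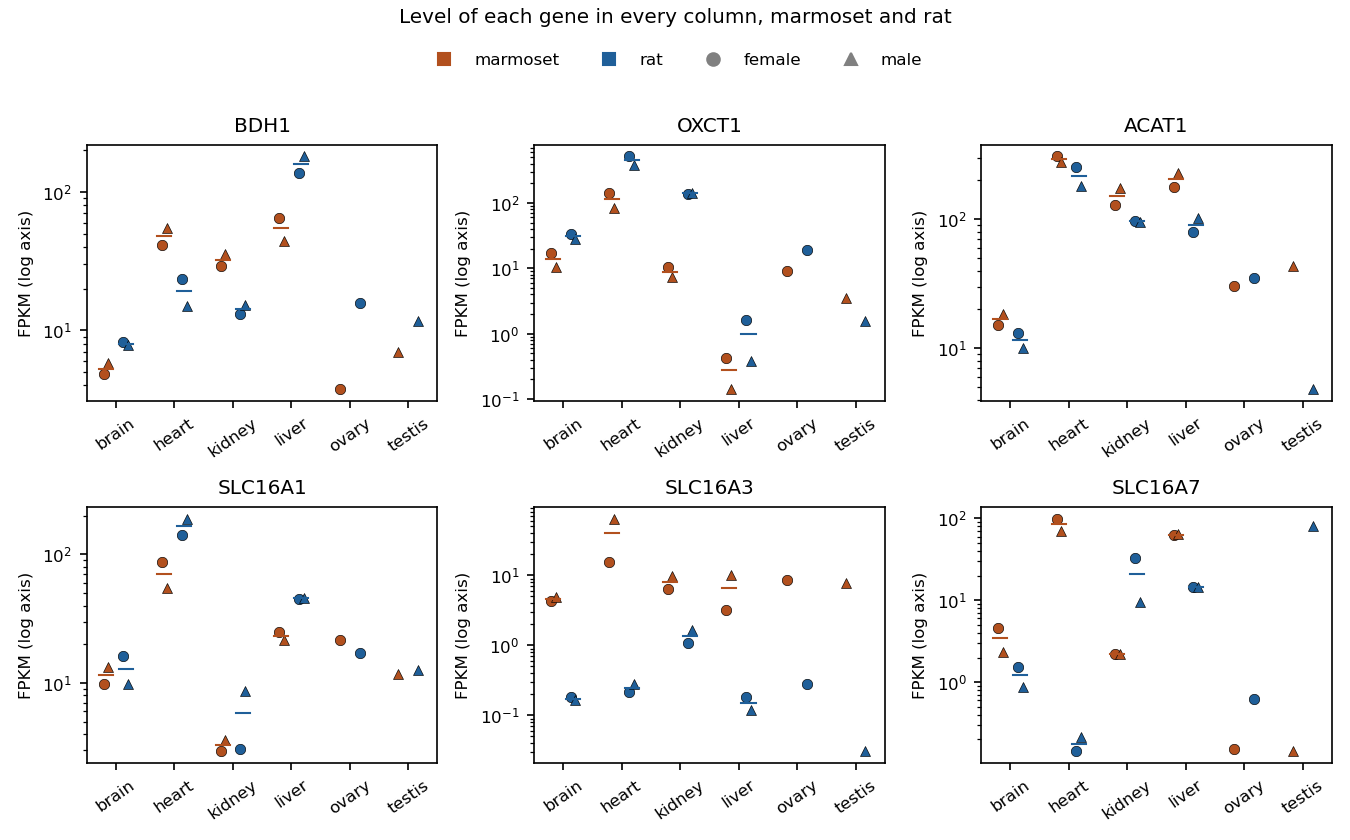
Level of each of the 6 genes in FPKM on a log axis, by tissue column, in marmoset and rat; circles are female and triangles male libraries, and short lines mark the mean of 2 columns. OXCT1 is at 1.59 FPKM or less in every liver library, and SLC16A7 takes opposite positions in heart and kidney of the 2 species.

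BDH1 (Ensembl ENSCJAG00000013869 in marmoset and ENSRNOG00000001736 in rat), the dehydrogenase of beta-hydroxybutyrate, was a liver gene in the rat and was spread over heart, kidney and liver in the marmoset. Rat Bdh1 was at 136 and 180.1 FPKM in liver, 23.4 and 15.0 FPKM in heart, 13.2 and 15.1 FPKM in kidney and 8.17 and 7.88 FPKM in brain. Marmoset BDH1 was at 64.6 and 44.3 FPKM in liver, 41.2 and 54.5 FPKM in heart, 28.9 and 35.5 FPKM in kidney and 4.80 and 5.78 FPKM in brain. Both rat livers stood above every other rat library, whereas marmoset liver and heart overlapped. Rat liver exceeded heart and kidney by 3.19 ± 0.27 log2 (limma adjusted p = 3.47e-04, higher within both animals), and marmoset liver did not pass (0.45 ± 0.26, limma adjusted p = 0.208).

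Rat kidney was below the mean of heart and liver in Bdh1 (-1.88 ± 0.27 log2, limma adjusted p = 0.00356). Rat heart was below the mean of kidney and liver (-1.31 ± 0.27, limma adjusted p = 0.00904). Both means hold the high liver values. The heart value was -0.86 without the male heart library, and did not pass (limma adjusted p = 0.0654). Rat heart and kidney did not pass against each other (0.38 ± 0.31, limma adjusted p = 0.365). In the marmoset, heart was at 0.19 ± 0.26 and kidney at -0.63 ± 0.26, and neither passed (limma adjusted p = 0.569 and 0.121).

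ACAT1 (Ensembl ENSCJAG00000010127 in marmoset and ENSRNOG00000007862 in rat), the mitochondrial acetoacetyl-CoA thiolase, was high in heart, kidney and liver and low in brain in both species. Marmoset ACAT1 was at 307 and 278 FPKM in heart, 129 and 175 FPKM in kidney, 177 and 231 FPKM in liver and 15.2 and 18.4 FPKM in brain. Rat Acat1 was at 255 and 182 FPKM in heart, 97.5 and 95.3 FPKM in kidney, 79.8 and 101 FPKM in liver and 13.2 and 10.1 FPKM in brain. Hearts stood above all other libraries of their species and brains below every heart, kidney and liver library. Rat heart exceeded kidney and liver by 1.20 ± 0.26 log2 (limma adjusted p = 0.0110), a call that was lost without the female heart (0.88, adjusted p = 0.0782) or without the female liver (1.05, adjusted p = 0.0586). Marmoset heart was at 0.74 ± 0.24 (limma adjusted p = 0.0452), under the fold required. Kidney and liver did not pass in either species, with values between -0.69 and -0.05.

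HMGCS1, an enzyme of sterol synthesis in the cytosol, was higher in liver than in heart and kidney by 3.10 ± 0.25 log2 in the marmoset and 4.20 ± 0.25 in the rat (limma adjusted p = 6.80e-04 and 8.82e-05). AACS, which activates acetoacetate in the cytosol for lipid synthesis, passed in opposite directions in heart, at 1.50 ± 0.26 in the marmoset and -2.26 ± 0.36 in the rat (limma adjusted p = 0.00642 and 0.00317). Without the female heart the marmoset value did not pass (1.33, limma adjusted p = 0.0700). The difference between species was not tested.

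The pathway list holds 46 reported genes besides the members, of which 36 were found in the marmoset table and 37 in the rat table. Some marmoset list genes carry no symbol there and were matched through their Ensembl ID, as OXCT1 was. Among them are EMB, LDHC, MPC1, MPC2, NPTN, PDHB, SLC16A10, SLC16A11, SLC16A13 and SLC16A14. In liver 12 of 28 tested were higher and 3 lower in the marmoset, and 10 of 31 higher and 10 lower in the rat, beside 32.3% and 35.7% of all genes, with medians of 0.39 and -0.56 log2 beside 0.07 and -0.01 for all genes. CPT1A, HMGCS1, PC and SLC16A12 were higher and SLC16A9 lower than the mean of heart and kidney in both. Rat Slc16a12 was at 24.1 and 23.0 FPKM in liver, below kidney (27.5 and 42.6 FPKM) in both animals. Marmoset SLC16A9 was at 3.24 and 1.10 FPKM in liver, beside 1.18 and 1.14 FPKM in heart and 103 and 101 FPKM in kidney. CPT1A, the gate of fatty acid entry into mitochondria, was higher by 2.51 in the marmoset and by 1.15 in the rat, and PC, pyruvate carboxylase, by 2.75 and 2.77. Marmoset FGF21 reached 1 FPKM, among these organs, only in liver, so it was bound to be higher there, and without it 11 of 27 were higher. The rat counts and median also hold Slc16a5, Slc16a14, Slc5a8 and Slc5a12. These reached 1 FPKM only in kidney among these organs, so their low liver values are a description. The rat CPT1A call was kept in 3 of 10 alternatives. Of the genes called in both species, HMGCS1 and SLC16A9 kept their liver calls in both species under every alternative run.

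SLC16A1 (Ensembl ENSCJAG00000013698 in marmoset and ENSRNOG00000019996 in rat), the widely expressed carrier MCT1, was highest in heart and lowest in kidney in both species. Marmoset SLC16A1 was at 86.9 and 54.4 FPKM in heart, 25.0 and 21.4 FPKM in liver, 9.75 and 13.2 FPKM in brain and 2.93 and 3.60 FPKM in kidney. Rat Slc16a1 was at 141 and 189.96 FPKM in heart, 45.2 and 46.0 FPKM in liver, 16.1 and 9.75 FPKM in brain and 3.06 and 8.61 FPKM in kidney. The heart, liver, brain and kidney libraries did not overlap in either species. Of the other columns, marmoset ovary (21.5 FPKM) lay within the range of liver, and marmoset testis (11.7 FPKM) and rat testis (12.6 FPKM) within that of brain.

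Heart exceeded kidney and liver in SLC16A1 by 2.78 ± 0.24 log2 in the marmoset (limma adjusted p = 6.83e-04) and by 3.27 ± 0.30 in the rat (limma adjusted p = 3.90e-04). Kidney was below heart and liver, at -3.27 ± 0.24 in the marmoset and -3.81 ± 0.30 in the rat (limma adjusted p = 7.86e-04 and 3.22e-04). Liver did not pass in either species (0.49 ± 0.24 and 0.54 ± 0.30, limma adjusted p = 0.151 and 0.173). Heart and kidney calls of SLC16A1 were kept in both species under every alternative run.

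SLC16A3 (Ensembl ENSCJAG00000018034 in marmoset and ENSRNOG00000036677 in rat), the lactate exporter MCT4, was a low gene in every rat tissue and led in heart in the marmoset. Rat Slc16a3 was at 1.07 and 1.67 FPKM in kidney and at 0.285 FPKM or less in every other rat column. It reached 1 FPKM in kidney alone, so its differences between tissues are a description, and the member counts below hold it as a gene that did not pass. Marmoset SLC16A3 was at 15.6 and 64.6 FPKM in heart, 6.33 and 9.81 FPKM in kidney, 3.22 and 9.95 FPKM in liver and 4.24 and 4.91 FPKM in brain. The marmoset hearts stood above all other libraries but differed 4.16-fold between male and female. Each other marmoset tissue overlapped the next in order of mean level, and both kidney libraries stood above both brain columns.

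Marmoset heart exceeded kidney and liver in SLC16A3 by 2.08 ± 0.32 log2 (limma adjusted p = 0.00443, higher within both animals), a call that needed the animal as a block (adjusted p = 0.0907 with no block). Marmoset liver was at -1.33 ± 0.32 (limma adjusted p = 0.0214), a call lost without either liver library (-1.28 and -1.38, adjusted p = 0.0969 and 0.0830), without the block (adjusted p = 0.257) and without the filter on low values (adjusted p = 0.0528).

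Of the 5 members other than SLC16A7, marmoset heart passed for 3 higher and 0 lower, marmoset kidney for 0 and 1, and marmoset liver for 0 and 2, beside 36.5%, 23.5% and 32.3% of all genes in either direction. Rat heart passed for 3 higher and 1 lower, rat kidney for 1 and 2, and rat liver for 1 and 1, beside 38.0%, 26.1% and 35.7%, with rat Slc16a3 among those that did not pass. The plot of tissue differences shows these values beside the median of all genes, which lay between -0.18 and 0.07 log2.

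**Figure D2:**
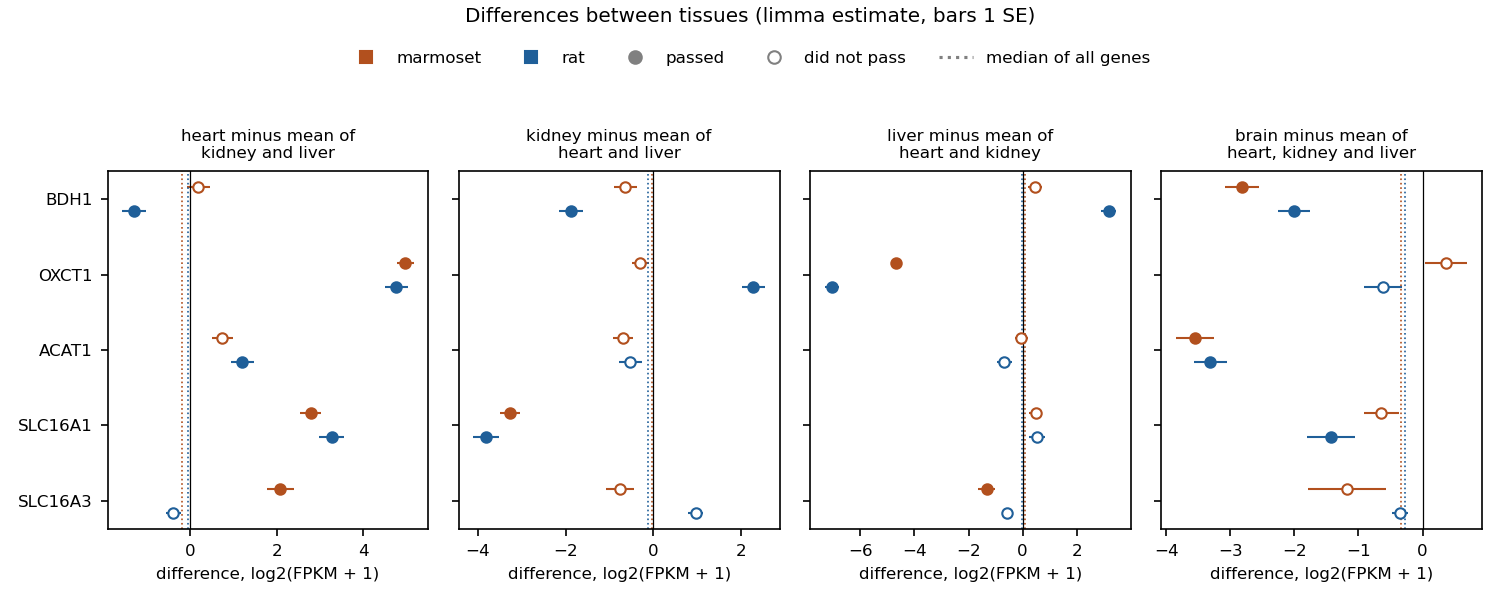
Differences between tissues for the 5 members tested, in log2(FPKM + 1), as limma estimates with bars of 1 SE; filled points passed, open points did not (rat Slc16a3 was kept by the filter through kidney alone and is a description), and dotted lines mark the median of all genes. OXCT1 and SLC16A1 lie right of the median in heart and BDH1 and ACAT1 left of it in brain, in both species.

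SLC16A7 (Ensembl ENSCJAG00000006419 in marmoset and ENSRNOG00000007839 in rat), the high-affinity carrier MCT2, held opposite places in the heart and kidney of the 2 species, which is what it was picked on. Marmoset SLC16A7 was at 99.5 and 70.1 FPKM in heart and 2.19 and 2.19 FPKM in kidney. Rat Slc16a7 was at 0.143 and 0.213 FPKM in heart and 32.9 and 9.50 FPKM in kidney. Within an animal, marmoset heart exceeded kidney 45.4-fold in the female and 32.1-fold in the male.

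Liver and brain took no part in that choice. SLC16A7 was at 4.58 and 2.35 FPKM in brain and 62.2 and 64.2 FPKM in liver of the marmoset, and at 1.54 and 0.882 FPKM in brain and 14.7 and 14.4 FPKM in liver of the rat. Brain was below liver, at -3.89 ± 0.35 log2 in the marmoset (limma adjusted p = 2.54e-04) and -2.83 ± 0.51 in the rat (limma adjusted p = 0.00274). The gonads differed between species as single values: SLC16A7 was at 80.3 FPKM in rat testis, the highest of all rat columns, and at 0.145 FPKM in the marmoset testis column, while the ovaries were at 0.152 FPKM in the marmoset and 0.627 FPKM in the rat. The germ cell markers given above differed between those testis columns as well, and their part in this was not tested.

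As shares of the summed FPKM of the 3 carriers, SLC16A7 made up 49.3 and 37.1% in marmoset heart and 68.8 and 67.2% in marmoset liver. In rat heart Slc16a1 made up 99.7 and 99.7%, and in rat liver 75.2 and 76.0%. SLC16A3 was the largest share in marmoset kidney, at 55.3 and 62.9% of a sum of 11.5 and 15.6 FPKM. In rat kidney Slc16a7 was the largest share, at 88.8 and 48.0%, and in rat testis 86.4%. Slc16a1 was the largest in both rat brain columns (90.3% each) and SLC16A1 in both marmoset brain columns (52.5 and 64.5%).

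**Figure D3:**
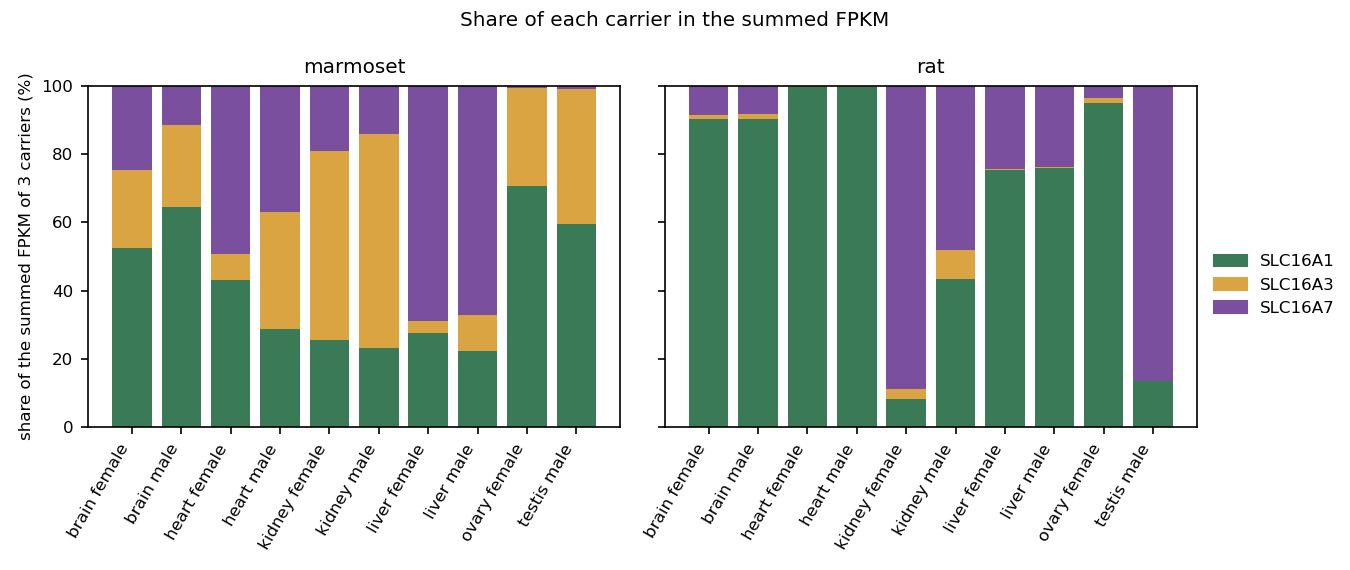
Share of SLC16A1, SLC16A3 and SLC16A7 in their summed FPKM, in percent, for each column of marmoset and rat. Rat hearts are almost wholly Slc16a1, while marmoset hearts hold all 3 carriers, each at 7.70% or more.

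BSG, the partner of SLC16A1 and SLC16A3, was at 141 and 973 FPKM in marmoset heart, 150.4 and 867 FPKM in kidney and 166 and 775 FPKM in liver, so that each male library was 4.67 to 6.88 times its female one. The same males were above their females in the pyruvate carrier subunits MPC1 and MPC2 in all 3 organs. BSG did not pass in any marmoset contrast of these organs (0.04, -0.02 and -0.03 log2 in heart, kidney and liver). Rat Bsg was at 182 and 171 FPKM in heart, 273 and 541 FPKM in kidney and 288 and 569 FPKM in liver, and heart was lower (-1.15 ± 0.33, limma adjusted p = 0.0264). That rat call was lost in 6 alternatives, among them without the male heart (-0.62, limma adjusted p = 0.171).

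EMB, the partner of SLC16A7 in rat tissues, was highest among these organs in kidney in both species, at 4.97 and 2.83 FPKM in marmoset and 28.3 and 14.0 FPKM in rat. Kidney exceeded heart and liver by 1.66 ± 0.20 log2 in the marmoset (limma adjusted p = 0.00339) and by 3.59 ± 0.23 in the rat (limma adjusted p = 1.70e-04). Heart was lower, at -1.02 ± 0.20 in the marmoset and -2.35 ± 0.23 in the rat (limma adjusted p = 0.00982 and 5.22e-04). In marmoset heart, where SLC16A7 was highest, EMB was at 0.530 and 0.256 FPKM. The marmoset calls were lost without the female kidney (limma adjusted p = 0.0592) for kidney and, for heart, in 5 of the 10 alternatives, among them without the animal block (limma adjusted p = 0.0793).

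EMB, SLC16A4 and SLC16A9 were higher in kidney than the mean of heart and liver in both species, and HMGCS1 was lower in both. Rat Slc16a4 was at 28.2 and 43.3 FPKM in kidney, which overlapped liver (21.7 and 44.1 FPKM), with heart at 0.0898 and 0.0397 FPKM. Rat Hmgcs1 was at 19.9 and 15.95 FPKM in kidney, above heart (16.7 and 15.0 FPKM) in both animals and below liver (278 and 384 FPKM). In kidney 5 of 28 list genes tested were higher and 7 lower in the marmoset, and 13 of 31 higher and 4 lower in the rat, beside 23.5% and 26.1% of all genes that passed in either direction and with medians of -0.26 and 0.56 log2 beside -0.03 and -0.11 for all genes. Of the rat genes, Slc16a5, Slc16a14, Slc5a8 and Slc5a12 reached 1 FPKM, among heart, kidney and liver, only in kidney, so their kidney values were bound to be higher and are a description, and without them 9 of 27 were higher and 4 lower. Marmoset FGF21, among those tested, reached 1 FPKM only in liver of these organs, and its low kidney value is a description. SLC16A9, a carrier known in humans for carnitine efflux, was at 103 and 101 FPKM in marmoset kidney and 12.2 and 12.8 FPKM in rat kidney, and rose by 5.34 ± 0.28 and 2.90 ± 0.22 log2 (limma adjusted p = 4.13e-04 and 2.77e-04). SLC5A12, the sodium-coupled lactate carrier of the tubule, was at 193 and 208 FPKM in marmoset kidney and at 1.75 and 31.1 FPKM in rat kidney. SLC5A8, the other sodium-coupled carrier, was at 0.539 and 1.14 FPKM in marmoset kidney and 29.8 and 17.0 FPKM in rat kidney. SLC16A4 and SLC16A9 kept their kidney calls in both species under every alternative run.

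SLC16A4 and SLC16A10, an aromatic amino acid carrier, were called in opposite directions in liver and are named here after their values were seen. SLC16A4 was at -3.11 ± 0.25 log2 in the marmoset and 2.37 ± 0.26 in the rat, and SLC16A10 at -1.45 ± 0.22 and 1.82 ± 0.24 (limma adjusted p = 6.72e-04, 8.56e-04, 0.00512 and 0.00159). These values are against the mean of heart and kidney, and rat Slc16a4 in liver overlapped kidney. SLC16A14 was higher in marmoset liver (2.19 ± 0.33, limma adjusted p = 0.00485) and lower in marmoset kidney (-1.86 ± 0.33, limma adjusted p = 0.0117), a kidney call lost without either kidney library (limma adjusted p = 0.0654 and 0.0927). Rat Slc16a14 was at 8.78 and 19.2 FPKM in kidney and 0.0707 FPKM or less in heart and liver. The differences between species were not tested.

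**Figure D4:**
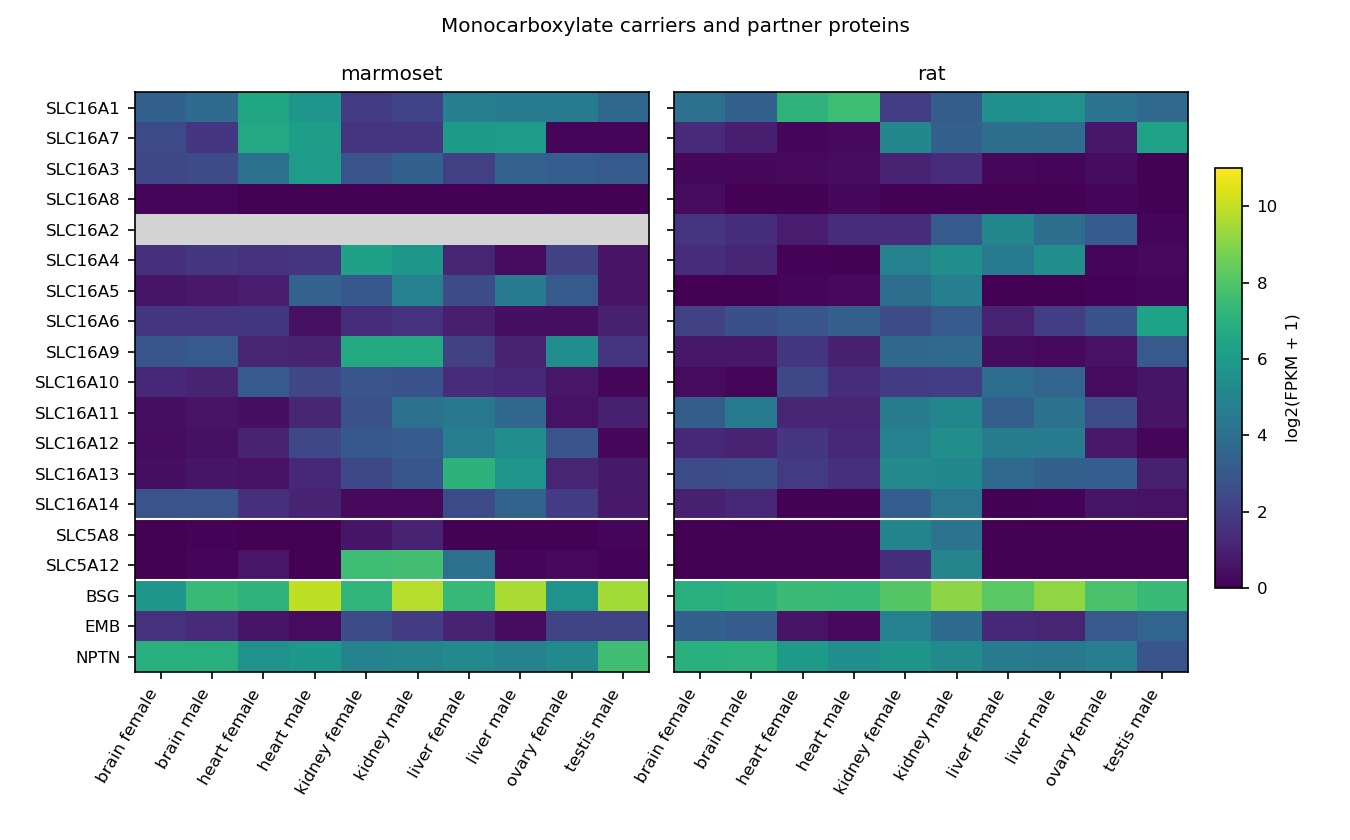
Levels of the SLC16 carriers, the sodium-coupled carriers and the partner proteins in log2(FPKM + 1) for each column of marmoset and rat; grey marks a gene not matched in that table, and white lines part the 3 groups. SLC16A9 and SLC16A4 are high in both kidneys, at 100.5 FPKM or more and 55.0 FPKM or more in marmoset.

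In heart 4 of 28 list genes were higher and 11 lower in the marmoset, and 8 of 31 higher and 15 lower in the rat, beside 36.5% and 38.0% of all genes, with medians of -0.57 and -1.15 log2 beside -0.18 and -0.07 for all genes. The rat counts and median hold Slc16a5, Slc16a14, Slc5a8 and Slc5a12. These reached 1 FPKM only in kidney among heart, kidney and liver, so their low heart values are a description. PDHA1 and PDHB, subunits of pyruvate dehydrogenase, and ACADM, a fatty acid dehydrogenase, were higher in both. The ACADM call was lost in 6 of 10 alternatives in the marmoset, among them without the female heart (0.79, limma adjusted p = 0.227), and in 3 of 10 in the rat, among them without the female heart (0.84, limma adjusted p = 0.0942). The marmoset PDHB call was lost without the female heart (1.44, limma adjusted p = 0.0507). PDHA1 rose by 2.24 ± 0.20 in the marmoset and 2.29 ± 0.24 in the rat (limma adjusted p = 7.47e-04 and 6.62e-04) and kept these calls under every alternative run. Lower than the mean of kidney and liver in both were CPT1A, EMB, PC, SLC16A4, SLC16A11, SLC16A12 and SLC16A13. SLC16A5 was called lower too, with its rat value a description. Without the animal block the marmoset PC and SLC16A5 calls were lost (limma adjusted p = 0.0638 and 0.324). The marmoset SLC16A11 call was lost without the female heart (-2.69). The rat CPT1A call was lost in 3 of 10 alternatives, among them without the male heart (-0.62). Marmoset SLC16A4 was at 2.04 and 2.28 FPKM in heart, above liver (1.22 and 0.254 FPKM) and below kidney (77.1 and 55.0 FPKM). LDHA and LDHB, the lactate dehydrogenase subunits, were matched in the rat table and not in the marmoset one. Rat Ldhb was at 2823 and 3166 FPKM in heart and 3.81 and 3.20 FPKM in liver. Rat Ldha was at 429 and 352 FPKM in heart and 553 and 981 FPKM in liver. Ldhb in heart rose by 6.16 ± 0.25 (limma adjusted p = 2.97e-05) and Ldha did not pass (0.73 ± 0.31, limma adjusted p = 0.0934), though it did without the male heart (1.22, adjusted p = 0.0413). MPC1 and MPC2 passed as higher in rat heart (1.50 and 1.13) and not in marmoset heart (0.40 and -0.55), and the rat calls were lost without the female liver (limma adjusted p = 0.0510 and 0.0631).

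Brain uses ketone bodies in fasting, and ACAT1 and BDH1 were low in its columns in both species. ACAT1 was below the mean of heart, kidney and liver at -3.55 ± 0.29 log2 in the marmoset (limma adjusted p = 2.13e-04) and -3.31 ± 0.26 in the rat (limma adjusted p = 5.28e-05). BDH1 was at -2.82 ± 0.27 in the marmoset and -2.002 ± 0.251 in the rat (limma adjusted p = 3.74e-04 and 5.06e-04). Rat Slc16a1 was lower (-1.42 ± 0.37, limma adjusted p = 0.0151), a call lost without the male brain column (-1.09, adjusted p = 0.153), and marmoset SLC16A1 did not pass (-0.64 ± 0.27, limma adjusted p = 0.103). OXCT1 did not pass in either species, at 0.37 ± 0.33 in the marmoset and -0.62 ± 0.30 in the rat (limma adjusted p = 0.397 and 0.119).

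That mean hides opposite pairs for OXCT1: brain stood above liver by 3.49 ± 0.40 log2 in the marmoset and 4.08 ± 0.37 in the rat, and below heart, at -2.95 ± 0.40 and -3.80 ± 0.37 (limma adjusted p = 7.93e-04, 9.28e-05, 0.00239 and 1.88e-04). Against kidney, brain OXCT1 was lower in the rat (-2.14 ± 0.37, limma adjusted p = 0.00307) and did not pass in the marmoset (0.56 ± 0.40, limma adjusted p = 0.339). SLC16A3 did not pass in marmoset brain (-1.18 ± 0.60, limma adjusted p = 0.159) and did so without the female heart (-1.51, adjusted p = 0.0375). It did so also with the sex in the column name as a replicate block (adjusted p = 0.0258).

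In brain 2 of the 5 members tested were lower in the marmoset and 3 in the rat, none was higher, and 37.1% and 43.1% of all genes passed. All genes together lay at a median of -0.34 log2 in marmoset brain and -0.28 in rat brain. Scaling the columns to 1 median brought these to 0.01 and 0.07 and changed the split of genes higher and lower to 3066 and 2713 in place of 2369 and 3231 in the marmoset, and to 3309 and 2844 in place of 2525 and 3747 in the rat. The BDH1 and ACAT1 calls were kept. Of the list, 3 of 29 were higher and 15 lower in marmoset brain and 3 of 33 higher and 18 lower in rat brain. Rat Slc16a5, Slc5a8 and Slc5a12, among those tested, reached 1 FPKM only in kidney among brain, heart, kidney and liver. Their low brain values are a description. NPTN, neuroplastin, a relative of basigin, was higher in both, by 1.63 ± 0.24 in the marmoset and 1.81 ± 0.26 in the rat (limma adjusted p = 0.00253 and 0.00101). The marmoset NPTN call was lost without the female brain column (1.64) and without the male one (1.61). HMGCLL1, a lyase outside the mitochondria, reached 1 FPKM, among brain, heart, kidney and liver, only in the brain columns of both species, so its higher value there is a description, and without it 2 of 28 and 2 of 32 were higher. Lower than the mean of heart, kidney and liver in both were ACADM, CPT1A, LDHD, MPC1, MPC2, PDHB, PPARA, SLC16A4, SLC16A10 and SLC16A12. Not every organ stood above brain: marmoset CPT1A was at 2.68 and 2.31 FPKM in brain and 2.11 and 2.12 FPKM in heart. SLC16A4 was at 1.80 and 2.38 FPKM in marmoset brain, above liver (1.22 and 0.254 FPKM). In rat brain it was at 1.61 and 1.18 FPKM, above heart (0.0898 and 0.0397 FPKM). Of those called in both, ACADM, CPT1A, PPARA and SLC16A12 kept their calls under every alternative run.

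The gonads had 1 column each, so their values carry no test. A gene was counted where its distance to the whole range of heart, kidney and liver libraries was 2 log2 units or more, as 6.29% of genes did in marmoset testis, 1.49% in marmoset ovary, 17.3% in rat testis and 1.29% in rat ovary. Rat testis lay below all of them in Acat1, at 4.80 FPKM against a lowest somatic value of 79.8 FPKM. Marmoset ovary lay below all of them in ACAT1 (30.3 FPKM) and BDH1 (3.75 FPKM), against lowest somatic values of 129 and 28.9 FPKM. The brain columns are not among the libraries counted, and with them none of these 3 values was past the fold: rat testis was at -0.93 from the range in Acat1, against -3.80 without them, and marmoset ovary was at 0 in ACAT1 and -0.29 in BDH1, against -2.05 and -2.66. With a pseudocount of 0.1 FPKM, SLC16A7 was past it in the marmoset testis column (-3.22) and ovary (-3.18), against -1.48 and -1.47 with a pseudocount of 1.

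OXCT1 was at 3.53 FPKM in the marmoset testis column and 1.57 FPKM in rat testis, and at 8.97 and 18.9 FPKM in marmoset and rat ovary. Of the lactate genes, Ldhc, the sperm form of lactate dehydrogenase, was at 991 FPKM in rat testis and 0.676 FPKM or less in every other rat column, while marmoset LDHC was at 1.89 FPKM in the testis column. Rat Slc16a6, named here after its values were seen, was at 83.4 FPKM in testis and 9.13 FPKM or less elsewhere.

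In the wallaby 3 members were matched. BDH1 was at 106 FPKM in testis and listed at 0 in liver, so no fold is given. SLC16A3 was at 27.5 FPKM in testis and 0.118 FPKM in liver, a difference of 4.67 on the log2(FPKM + 1) scale. ACAT1 was at 51.9 FPKM in testis and 248 FPKM in liver, a difference of -2.23, which was -1.25 with the columns scaled to 1 median. A difference of 2 with at least 5 FPKM in the higher tissue was reached by 52.2% of wallaby genes, and by SLC16A3 and ACAT1, the second of which did not reach it with scaled columns. With 1 library a tissue there is no replicate check.

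The genes whose levels followed each member most closely over the 10 columns of a species are given by Pearson correlation of log2(FPKM + 1), as a description over columns that share animals. For BDH1 they were ACOT13 (r = 0.98), AAMDC and MAOA in the marmoset and Ppp1r3b (r = 0.99), Rarres2 and Rtp3 in the rat. For OXCT1 they were PPM1K (r = 0.98), SLC7A6 and B3GLCT in the marmoset and Efemp1 (r = 0.98), Pdgfb and Acss1 in the rat. For ACAT1 they were PARP3 (r = 0.98), SUCLG2 and OXSM in the marmoset and Kdr (r = 0.99), Pcca and Dbt in the rat. None of these genes stood among the 3 closest to the same member in both species.

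For the carriers, SLC16A1 was followed by FAM185A (r = 0.92), HBS1L and DMD in the marmoset and by Fxyd1 (r = 0.96), Pdk1 and Hspb8 in the rat. SLC16A7 was followed by STARD7 (r = 0.98), TIPARP and ST3GAL1 in the marmoset and by Epb41l4b (r = 0.96), Bin2 and Topors in the rat. SLC16A3 was followed by ALKBH1 (r = 0.95), NRTN and ADAMTSL1 in the marmoset, where 1 library, the male heart, was the highest for all 4 genes. In the rat Slc16a3 was below 5 FPKM everywhere, and its closest genes, Arhgef16 (r = 0.99), Gata3 and A4galt, were highest in the kidneys.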

How the data were processed

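TopHat 1.4.0 and Cufflinks 2.0.0 are named in the submitters' processing notes. Builds and the way columns were normalized are not given in the sources used. No coordinates or sequences are printed. The deposited values are FPKM by the authors, in 1 table per species, and come without counts, so the depth is unknown. Columns were matched to samples by tissue and sex, and 8 wallaby columns, all at 0, were not used.

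Tests ran over each whole table on log2(FPKM + 1), for genes that reached 1 FPKM in 2 or more libraries. They used limma 3.58.1 (R 4.3.3), its intensity trend, and Benjamini-Hochberg adjustment. Heart, kidney and liver were fitted with the animal as a block, since the labels give all 3 tissues the same female and male; male minus female differences correlated between tissues at 0.44 to 0.72 across genes. Brain was fitted without a block, since its columns do not say which brain region they hold. The labels do give brain the same female and male, so this fit ignored that pairing. With a block by the sex in the column name, 6922 genes in place of 5600 passed in marmoset brain. In rat brain it was 6511 in place of 6272. Marmoset BSG in brain was at -1.87 log2 and passed with that block (limma adjusted p = 0.00134) and not without it. Each fit was first run on made data with known changes in 200 genes with a mean log2(FPKM + 1) above 3. All other genes were made alike between tissues. Of changes of 2 and 3 log2, 81 and 94% passed in marmoset heart and 78 and 97% in rat heart. In brain it was 39 and 58% in the marmoset and 62 and 83% in the rat, so a brain change of that size can fail to pass in such data. Far more genes passed in the real data, which moves the adjusted p, so these rates are not those of the real tests. Alternatives were no block (for brain, a block by sex), a pseudocount of 0.1, no filter, columns scaled to 1 median, and each library left out. The genes named are the members, fixed genes of the pathway list, list genes called the same way in both species, and the 3 closest genes by correlation. Members and lists were chosen with earlier results of these data known. A few list genes are not reported here, and counts over the list are without them.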

Additional observations from a re-analysis of the deposited data

Results flagged for a closer look

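Results are given here where every library of 1 species differed between 2 tissues in one direction and every library of the other species in the opposite direction, in mean log2(FPKM + 1). None of these differences between species was tested, the tables were normalized separately, and each species has 1 female and 1 male.

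SLC16A7, picked on its heart and kidney values, was met in 4 pairs of tissues. For heart minus kidney it was at 4.73 in the marmoset and -4.00 in the rat. Heart minus liver was 0.40 in the marmoset and -3.72 in the rat, brain minus heart -4.29 and 0.89, and brain minus kidney 0.44 and -3.11. SLC16A3 was met in 1 pair, heart minus kidney, at 1.89 in the marmoset and -0.91 in the rat, where it was at 1.67 FPKM or less in every column. Groups of 2 libraries are too small for a check on single outlying samples.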

How the results depend on the processing

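Counts of genes passing in the marmoset rested on the replicate block, which pairs tissues of the same animal: without it 2975 genes in place of 5103 passed in heart, 1719 in place of 3282 in kidney and 2494 in place of 4507 in liver. With 1 library left out at a time the counts ranged from 3653 to 5053 in heart, 1378 to 3293 in kidney, 3476 to 4271 in liver and 1820 to 6003 in brain of the marmoset, and from 4103 to 4852, 2340 to 3150, 3969 to 4460 and 3862 to 6454 in the rat. Where this leaves a tissue with 1 library, that library is taken to vary like the others. The gonad counts moved with the fold and pseudocount: the marmoset testis count of 985 was 1588 with a pseudocount of 0.1 and 2817 at a fold of 1 log2, and the ovary count of 228 was 547, 1054 and, with brain columns added, 110. The rat testis count of 2807 was 5392 at a fold of 1, and the ovary count of 187 was 460, 817 and 104. Values that changed sign were uncalled. In marmoset heart BDH1 was -0.072 to 0.45 and BSG -0.16 to 0.25 with a library left out. In marmoset kidney OXCT1 was 0.50 with a pseudocount of 0.1, and BSG was 0.061 with scaled columns and -0.12 to 0.093 with a library left out. With a library left out in liver of the marmoset AACS was -0.65 to 0.20, ACAT1 -0.19 to 0.087 and BSG -0.24 to 0.19, and in rat kidney AACS was -0.71 to 0.049. The cause was not tested. The depth is unknown, and 1 animal of each sex limits every comparison.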
